A study of Mus musculus with 6 samples.

Results

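The genes described here are the amino acid and neurotransmitter carriers of 4 solute carrier families. They were all protein-coding mouse genes of the RefSeq annotation of GRCm38 whose symbol starts with Slc1a, Slc6a, Slc7a or Slc38a followed by a number. This gave 54 of 21887 protein-coding genes, with 7 in Slc1a, 21 in Slc6a, 15 in Slc7a and 11 in Slc38a. For each gene, the ATAC-seq peaks with their summit in the gene or within 20 kb of either end were taken. These were 316 of 106132 peaks in the list of wildtype cells and 308 of 98072 peaks in the list of cells lacking Lap2alpha.

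The cells were mouse dermal fibroblasts, grown in DMEM with fetal calf serum. The 3 libraries labelled WT carry no stated alteration, and the 3 labelled Lap2alpha KO lack lamina-associated polypeptide 2 alpha, a binding partner of A-type lamins in the nucleoplasm. The labels do not say how the knockout allele was made, or whether the libraries of a genotype were separate animals or cultures. Peaks are reported once per genotype, so the values below describe 2 lists, without replicate spread and without a test between genotypes, and read depth is unknown.

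Carriers of these families move amino acids, and compounds derived from them, across membranes. Slc1a proteins take up glutamate or exchange neutral amino acids. Slc6a proteins are driven by sodium and chloride, and clear transmitters such as noradrenaline, serotonin, GABA and glycine from the space around nerve endings, or import taurine, creatine and neutral amino acids in many tissues. Slc7a holds the cationic amino acid transporters and the light chains that pair with the heavy chains Slc3a2 or Slc3a1 to form exchangers. Slc38a holds the sodium-coupled carriers of glutamine, alanine and related amino acids, some of which sit in the lysosome. Cultured fibroblasts depend on such uptake for protein, collagen and glutathione synthesis, while several of the transmitter carriers are known mainly from neurons and glia.

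The sequences below are the 250 bases ahead of the annotated start of 6 members, 5′ to 3′ on the strand of the gene, from the RefSeq promoter table of GRCm38.p6. They are shown because peaks of both lists cover all 250 bases at 5 of these genes, whereas at Slc1a3 the WT peak covers 178 bases and the KO peak covers 0. All 6 genes lie on the minus strand. Capitals mark matches, in either orientation, to the amino acid response element core TGATGNAA, the antioxidant response element core TGACNNNGC and the AP-1 motif TGANTCA. They also mark TGACG in either orientation, a part of the cyclic AMP response element (CRE) that is called the CRE core here. A CRE core is not by itself a full element. The promoters lie at chr15:8710808-8711057 for Slc1a3, chr11:20332714-20332963 for Slc1a4, chr3:107518019-107518268 for Slc6a17, chr3:50443614-50443863 for Slc7a11, chr5:148399905-148400154 for Slc7a1 and chr15:96699729-96699978 for Slc38a2.
Slc1a3: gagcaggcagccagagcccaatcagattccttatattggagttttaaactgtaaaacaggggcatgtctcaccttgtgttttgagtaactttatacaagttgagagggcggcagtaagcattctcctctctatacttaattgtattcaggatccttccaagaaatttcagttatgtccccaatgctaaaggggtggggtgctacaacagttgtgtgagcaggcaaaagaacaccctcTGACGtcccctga
Slc1a4: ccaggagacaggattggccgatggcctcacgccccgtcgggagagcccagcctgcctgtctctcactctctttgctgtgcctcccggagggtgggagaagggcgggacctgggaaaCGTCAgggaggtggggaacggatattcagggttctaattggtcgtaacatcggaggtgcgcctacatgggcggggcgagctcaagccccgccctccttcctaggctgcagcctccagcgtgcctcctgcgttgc
Slc6a17: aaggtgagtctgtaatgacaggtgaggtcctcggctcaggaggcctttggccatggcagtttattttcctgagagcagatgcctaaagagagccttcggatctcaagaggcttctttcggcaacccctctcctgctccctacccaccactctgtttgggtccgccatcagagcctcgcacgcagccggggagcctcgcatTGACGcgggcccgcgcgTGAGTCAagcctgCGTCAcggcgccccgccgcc
Slc7a11: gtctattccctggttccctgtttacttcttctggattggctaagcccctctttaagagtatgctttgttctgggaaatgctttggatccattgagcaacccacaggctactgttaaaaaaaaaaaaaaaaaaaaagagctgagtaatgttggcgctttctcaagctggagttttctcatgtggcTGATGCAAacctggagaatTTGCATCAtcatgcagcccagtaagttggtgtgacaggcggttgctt
Slc7a1: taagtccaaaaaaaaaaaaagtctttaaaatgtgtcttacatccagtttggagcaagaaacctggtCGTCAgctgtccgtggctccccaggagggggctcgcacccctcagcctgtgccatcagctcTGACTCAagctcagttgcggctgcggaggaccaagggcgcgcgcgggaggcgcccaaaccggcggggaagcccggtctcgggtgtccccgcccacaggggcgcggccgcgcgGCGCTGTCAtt
Slc38a2: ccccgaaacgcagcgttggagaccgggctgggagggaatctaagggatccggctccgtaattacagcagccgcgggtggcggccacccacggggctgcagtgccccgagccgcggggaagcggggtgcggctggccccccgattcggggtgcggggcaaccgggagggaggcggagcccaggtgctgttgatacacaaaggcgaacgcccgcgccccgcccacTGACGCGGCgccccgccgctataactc

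Slc7a11, the cystine and glutamate exchanger that supplies cysteine for glutathione, has 2 amino acid response element cores in opposite orientation, which begin 66 and 47 bases before its start. Slc7a1, the main cationic amino acid transporter of most cells, has an antioxidant core beginning 11 bases before the start, an AP-1 match at 123 and a CRE core at 184. In Slc38a2, a system A carrier induced by amino acid shortage, an antioxidant core and a CRE core begin at the same base, 27 before the start. The promoter of Slc1a3 holds 1 CRE core, at 13 bases, and that of Slc6a17 holds CRE cores at 50 and 20 with an AP-1 match at 33. In Slc1a4 a CRE core lies at 134 bases. An amino acid response element core begins 4 bases before the Slc1a4 start and runs past it, so it is not in capitals.

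Motif matches were counted in the 300 bases around each start, 250 before and 50 after, on both strands, in the 58 promoters given for 38 members. The amino acid response element core was in 5 member promoters (8.62%), against 3.6% of all 21263 protein-coding promoters. The antioxidant core was in 15.5% of member promoters and 13.0% of all, AP-1 in 13.8% and 6.99%, and the CRE core in 27.6% and 23.6%. The E-box CACGTG, the site of several helix-loop-helix factors, was in 12.1% and 7.84%. The 5 promoters with an amino acid response element core belong to Slc7a11, Slc7a7, Slc1a4 and Slc6a21, since 2 of the 5 starts of Slc7a7 have one. The same match, TGATGCAA, falls in both of these Slc7a7 promoters. The more upstream promoter also holds TGATGAAA, 141 bases before its start. A CRE core can lie inside an antioxidant core, and several promoters of 1 gene can overlap, so these shares are descriptions and not counts of independent sites. The median GC content was 59.0% in promoters of members with a start peak in both lists and 55.7% in those of members without one, against 56.3% over all promoters.

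Most accessible regions of the carrier genes were called in both genotypes. Of the 316 WT peaks, 277 overlapped a KO peak by at least 1 bp, a share of 87.7% (95% Wilson interval 83.6 to 90.8, counting error only). The other 39 were WT-only, or 12.3%, where 18.5% of all WT peaks near protein-coding genes were WT-only. Of the 308 KO peaks, 276 overlapped a WT peak (89.6%, 85.7 to 92.5), and the other 32 were KO-only, or 10.4%, where the background was 12.2%. The KO list thus held 97.5% as many member peaks as the WT list, against 93.5% near all protein-coding genes. Other solute carriers, 288 genes with symbols of other Slc families, had 16.9% WT-only and 13.0% KO-only peaks, between the members and the background in WT and above both in KO. Which list held more single-list member peaks changed with the setting. With both lists held to their strongest 73554 peaks, 24 were WT-only and 35 KO-only, and with a summit −log10 p of at least 10.2 in both, 15 and 17.

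Peaks called in 1 list were narrow and weak, at members as over all peaks. Signal is given here only as a percentile within its own list, where 100 is the strongest peak. Shared member peaks had a median percentile of 63.9 in the WT list and 59.2 in the KO list, with median widths of 636 and 592 bp. Single-list peaks had medians of 17.9 and 17.2, with widths of 264 and 263 bp. Over all peaks, single-list medians were 17.8 and 16.5, with widths of 231 and 245 bp, and shared medians were 59.3 and 55.9. Shared and single-list member peaks together had medians of 58.5 in WT and 56.1 in KO, against 51.5 in each list near all protein-coding genes. A link between this strength and the lower single-list shares of members was not tested. The member counts that follow are given without a background share. Only 2 WT-only peaks, at Slc6a6 and Slc1a3, and 1 KO-only peak, at Slc6a4, lay in the upper 50% of their list. Of the 39 WT-only peaks 11, and of the 32 KO-only peaks 7, lay within 1 kb of a peak of the other list. A weak peak missing from a list may have fallen just short of that list's threshold, and this cannot be told apart from closed chromatin.

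The positions of shared peaks matched closely. In 249 pairs of 1 WT and 1 KO peak, the summits lay a median of 10 bp apart, and 82.3% were within 50 bp, against 11 bp and 79.6% over all 75840 pairs. The WT peak was the wider in 134 member pairs and the KO peak in 114, or in 53.8% of pairs against 52.4% over all. Some regions were joined in 1 list and split in the other. At members, 9 WT peaks spanned more than 1 KO peak (3.25% of shared WT peaks, against 3.8% over all). In the other direction, 10 of 276 shared KO peaks spanned more than 1 WT peak, against 2812 of 84910 over all. The widest split was at Slc1a5, an exchanger that brings glutamine into growing cells. There, the WT list held 1 peak of 4153 bp at chr7:16780777-16784929, and the KO list held 3 peaks of 1950, 1402 and 176 bp over it. The reverse occurred in the flank of Slc7a7, where a KO peak of 3432 bp over the start of the neighbouring Mmp14 met 3 WT peaks of 1481, 567 and 1178 bp.

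**Figure D1:**
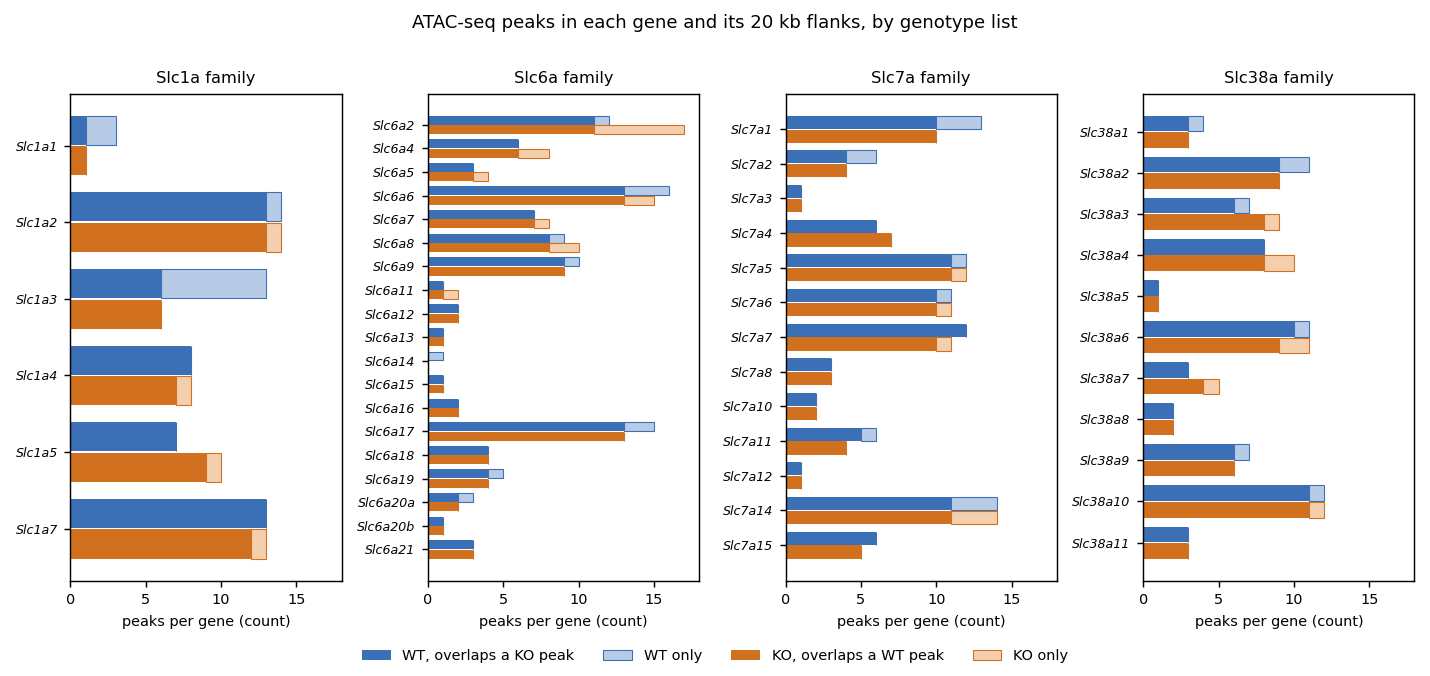
Number of ATAC-seq peaks in each gene and its 20 kb flanks (horizontal axis, count) for the carriers with a peak in either list, by family, with the WT list in blue and the KO list in orange. Dark bars are peaks that overlap a peak of the other list and pale bars are peaks called in 1 list only; Slc1a3 has 7 WT-only peaks and Slc6a2 has 6 KO-only peaks.

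The balance of single-list peaks is given by family as counts, without a test. Slc1a had 58 WT peaks, of which 10 were WT-only (17.2%), and 52 KO peaks, of which 4 were KO-only (7.69%). Slc7a had 93 WT peaks with 11 WT-only (11.8%) and 85 KO peaks with 6 KO-only (7.06%). Slc6a had 96 WT peaks of which 11 were WT-only (11.5%) and 100 KO peaks of which 15 were KO-only (15.0%). Slc38a had 7 WT-only of 69 peaks (10.1%) and 7 KO-only of 71 (9.86%). These family balances moved with the settings. KO-only minus WT-only peaks in Slc7a went from -5 to 3 under a summit threshold, in Slc6a from 4 to 12 with lists of equal length, and in Slc38a from 0 to 4 with equal lengths and to -15 with 50 kb flanks. In Slc1a it ranged from -7 to -1 over the alternatives run. The intervals of these shares overlap among families, and 2 genes supply much of the imbalance: Slc1a3 holds 7 of the 10 WT-only peaks of Slc1a, and Slc6a2 holds 6 of the 15 KO-only peaks of Slc6a.

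**Figure D2:**
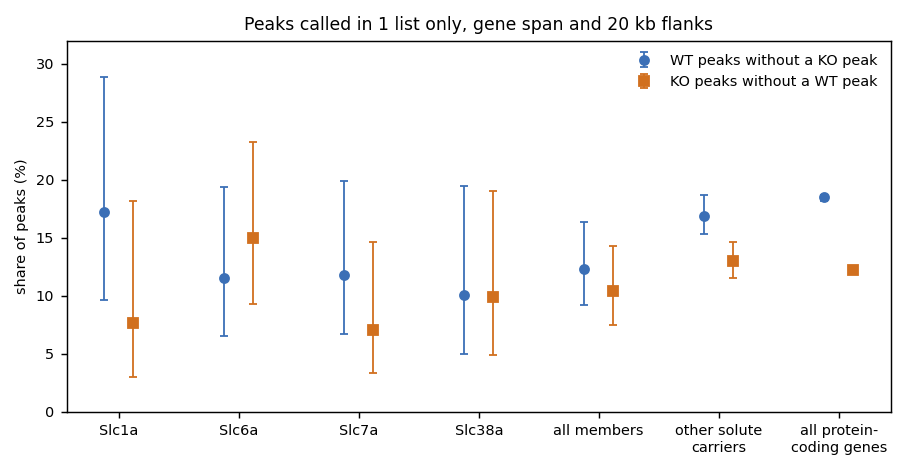
Share of peaks called in 1 list only (vertical axis, percent) for the 4 families, all members, other solute carriers and all protein-coding genes, with 95% Wilson intervals that cover counting error only. The WT-only share of all members is 12.3%, below the 18.5% of all genes, and the family intervals overlap one another.

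By gene, 27 members had the same number of peaks in both lists, 16 had more in WT and 11 more in KO. KO-only peaks outnumbered WT-only peaks at 13 members (24.1%, against 19.2% of all protein-coding genes), and the opposite held at 14 (25.9%, against 37.4%). No single-list peak was found at 21 members (38.9%, against 36.5%). No peak at all was called in either list at 9.26% of members, against 15.2% of all genes. Among these were Slc1a6, the glutamate carrier of cerebellar Purkinje cells, Slc6a3, the dopamine carrier, Slc7a9, a kidney and gut light chain, and Slc7a13, a light chain described in kidney.

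A gene start was counted as open in a list when a peak overlapped the 1 kb on either side of an annotated start, or of either gene end for the 16 members without a promoter in the table. An open start in both lists was found at 23 of 54 members (42.6%, against 55.0% of all genes). The other 31 (57.4%, against 41.9%) had none in either list. No member had a start peak in the WT list only, where the background was 2.01%, and none in the KO list only, where it was 1.08%. Slc38a had 7 of 11 starts open in both lists and Slc1a 4 of 7, while Slc7a had 6 of 15 and Slc6a 6 of 21. Among other solute carriers 151 of 288 were open in both lists, 3 in WT only and 6 in KO only. Where strand was known, 16 of 38 members were open in both lists.

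The open starts of members carried strong peaks, as open starts did in general. The strongest start peak of these 23 members had a median percentile of 93.2 in the WT list (55.0 to 99.5) and 91.4 in the KO list (27.7 to 99.7). At 15 members in WT and 14 in KO it was at or above the 90th percentile of the list, as it was at 56.7% and 50.6% of all protein-coding genes open in both lists. The start peaks of all genes open in both lists had medians of 91.6 and 90.2. In order of the WT value, the leading starts were those of Slc1a4 (99.5 WT, 99.7 KO), Slc7a6 (99.1, 98.3), Slc1a5 (99.1, 92.3) and Slc7a1 (99.0, 99.1). The lowest were Slc6a19 (55.0, 53.2), Slc1a7 (78.7, 67.7) and Slc1a3 (81.4, 27.7).

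**Figure D3:**
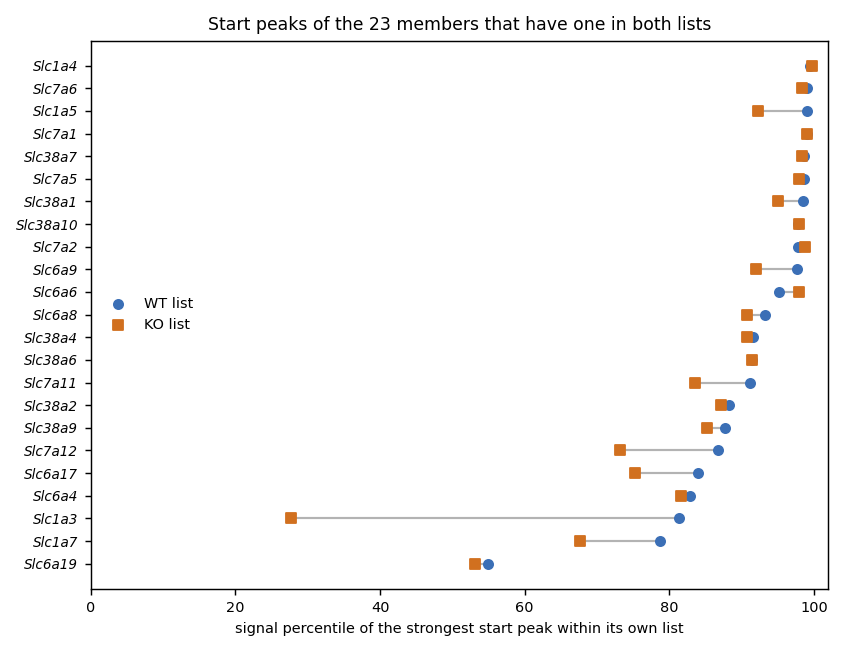
Signal percentile of the strongest start peak within its own list (horizontal axis, 0 to 100) for the 23 members with a start peak in both lists, with WT as circles and KO as squares joined by a line. Most members lie above 80 in both lists; Slc1a3 is at 81.4 in the WT list and 27.7 in the KO list, which have different lengths.

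Among the 5 glutamate carriers of Slc1a, 43 WT and 34 KO peaks were called, with 10 WT-only and 2 KO-only. Near all protein-coding genes, 18.5% of WT peaks were WT-only and 12.2% of KO peaks were KO-only. Of the 10 WT-only peaks, 7 were at Slc1a3. Slc1a3 encodes the glutamate and aspartate carrier of astrocytes and radial glia (gene ID 20512, chr15:8634124-8710807, minus strand). Its window held 13 WT and 6 KO peaks. All 6 KO peaks overlapped a WT peak, 7 WT peaks had no KO partner, and peaks covered 5997 bp in WT and 2740 bp in KO. A difference of 7 or more in favour of WT-only peaks was found at 0.79% of all protein-coding genes, 15.2% of which had no peak. Slc1a3 had the lowest balance of all members. A difference of 5 or more in this direction was found at 1.85% of members and 2.33% of all genes. Only 1 of the 7 WT-only peaks is in the upper 50% of its list. With both lists limited to their upper 50%, Slc1a3 had a start peak in the WT list alone.

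At the Slc1a3 start, the WT peak at chr15:8710032-8710985 was 954 bp long, with a percentile of 81.4 and a summit −log10 p of 14.4. The KO peak at chr15:8710158-8710568 was 411 bp long, at percentile 27.7 and −log10 p 7.20. Both summits lay inside the gene, 328 and 323 bp from the start, and the KO peak ended 239 bp short of the start itself. A second WT peak at chr15:8709581-8709916, at percentile 47.3, lay 242 bp from the KO peak and had no overlap. The accessible interval at this start was therefore called in both lists, but the part reaching into the promoter sequence printed above was called in WT alone.

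In the rest of Slc1a3, the WT list held 4 body peaks, at chr15:8637000-8637588 (percentile 50.5), chr15:8638632-8638900 (16.1), chr15:8644078-8644270 (25.1) and chr15:8676364-8676672 (12.0), and the KO list held 0. Upstream, WT-only peaks lay 11782 bp from the start at percentile 44.4 and 6367 bp from it at 3.03. Beyond the 3′ end, 5 regions were shared. The strongest of these, at chr15:8626992-8628189 in WT, had percentiles of 83.7 and 78.7, and the next had 73.4 and 68.2. The 2 lists thus differed across the gene body and upstream of Slc1a3, and matched past its 3′ end. Outside this window but within 1 Mb of it, there were 117 WT and 98 KO peaks (83.8%), so the surroundings also held fewer KO peaks, by a smaller share.

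**Figure D4:**
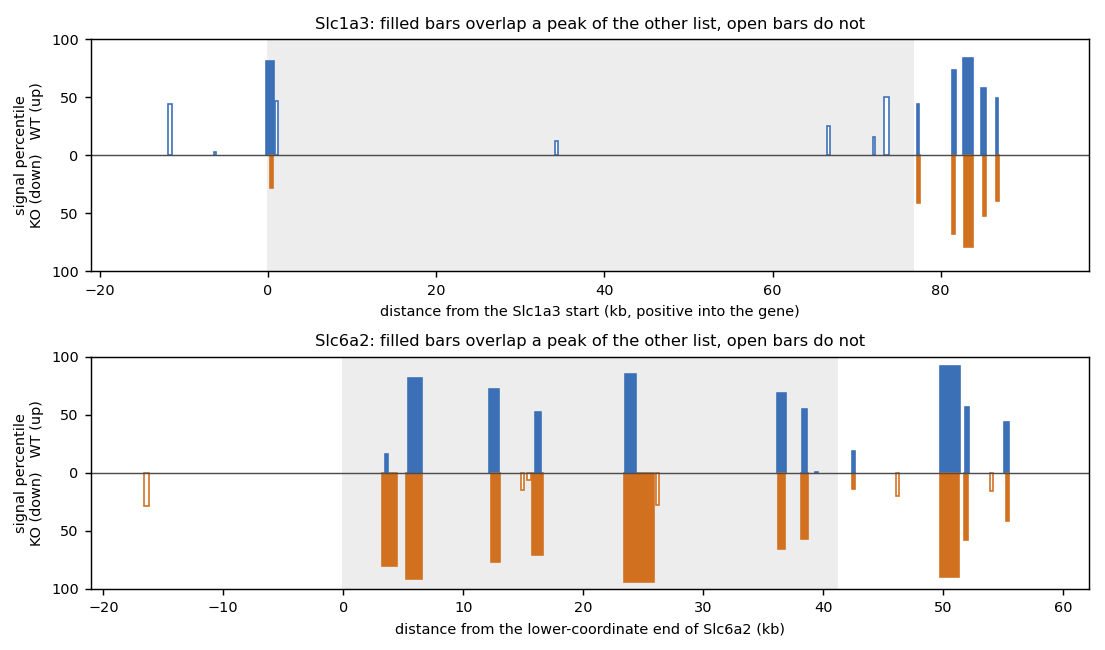
Peaks at Slc1a3 (upper panel, distance from its start in kb, positive into the gene) and at Slc6a2 (lower panel, distance from the lower-coordinate end in kb), with height as the signal percentile of each peak within its own list, WT upward and KO downward, and the gene span shaded (peaks narrower than 0.25 kb are drawn at 0.25 kb). Filled bars overlap a peak of the other list and open bars do not: 7 WT bars are open at Slc1a3, against 6 KO bars and 1 WT bar at Slc6a2.

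Slc1a2, the main glutamate carrier of astrocytes, had 14 peaks in each list, and 13 of each were shared. None was at its annotated start, and the nearest lay 15367 bp from it in WT and 16127 bp in KO. Its strongest shared region, past the 3′ end, had percentiles of 76.1 and 82.8. The KO-only peak at chr2:102648879-102649430 had a percentile of 48.6 and lay 25932 bp from any WT peak, while the WT-only peak had a percentile of 27.7 and lay 550 bp from a KO peak.

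Slc1a7, a glutamate carrier best known from the retina, also had 13 peaks in each list, with an open start and a body peak at 85.6 in WT and 86.5 in KO. Its strongest KO value, 88.0, came from a flank peak inside the neighbouring Podn. The only single-list peak was a KO-only peak of percentile 11.2 at the Podn start. Slc1a1, the glutamate carrier of neurons and epithelia, had 3 WT peaks and 1 KO peak, with 2 WT-only peaks at 13.8 and 3.78. Its surroundings held 145 WT and 112 KO peaks.

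The 2 neutral amino acid exchangers of the family were open in both lists and had no WT-only peak. Slc1a4, which exchanges alanine, serine and cysteine, had 8 peaks in each list and the strongest start peak of all members. The start peak measured 2301 bp in WT and 2735 bp in KO, and the KO peak also took in a separate WT peak of 236 bp. Slc1a5 had 7 WT and 10 KO peaks, the difference arising from the split start peak described above and from 1 KO-only peak at percentile 11.6. Of its peaks, 4 in each list lay at the starts of neighbouring genes.

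The 3 monoamine carriers of Slc6a had 18 WT and 25 KO peaks, with 1 WT-only and 8 KO-only. Of these 8, 6 were at Slc6a2, and the background near all protein-coding genes was 18.5% WT-only and 12.2% KO-only. Slc6a2 encodes the noradrenaline carrier (gene ID 20538, chr8:92960470-93001667) and has no promoter in the table. Its window held 12 WT and 17 KO peaks, of which 11 in each list were shared, and peaks covered 7698 bp in WT and 11821 bp in KO. A difference of 5 or more in favour of KO-only peaks was found at 0.95% of all genes and at 1.85% of members, among which Slc6a2 had the highest balance. No peak overlapped the 1 kb around either gene end in either list.

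The 6 KO-only peaks of Slc6a2 were all weak. They had percentiles of 29.2, 14.6, 6.76, 27.8, 20.6 and 16.0, in the order of position from chr8:92943887 to chr8:93014603, and 3 lay inside the gene. The WT-only peak, at 0.696, was among the weakest of its list. None of these 7 peaks is in the upper 50% of its list. The larger differences were in shared regions. A region near the lower-coordinate end was 235 bp long in WT (percentile 16.0) and 1249 bp in KO (80.6), and the strongest region of the gene body was 953 bp in WT (84.6) and 2485 bp in KO (94.1).

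Other regions of the Slc6a2 body had widths of 1099 and 1339 bp (81.4 WT, 92.2 KO) and 516 and 908 bp (52.3, 71.2). Of the 7 shared regions inside the gene, the KO peak was the wider in 5 and the WT peak in 2. In the flanks the WT peak was the wider in all 4, including a strong region at chr8:93010175-93011859 with percentiles of 92.2 and 89.9. The surroundings within 1 Mb held 96 WT and 87 KO peaks (90.6%), so the higher KO count was within the window and not around it.

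Slc6a4, the serotonin carrier, had an open start in both lists, at percentiles of 82.8 and 81.6. The peak ended 262 bp short of the annotated start in both. All 6 of its WT peaks were shared. The KO-only peak at chr11:76990776-76991327, 552 bp long and 7577 bp upstream of the start, had a percentile of 55.9, the highest of any KO-only member peak, and lay 5692 bp from a WT peak. A second KO-only peak in the body was at 2.14. The third carrier of this group, Slc6a3, had no peak.

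GABA and betaine carriers were sparse in peaks. Slc6a12 had 2 peaks and Slc6a13 1 peak in each list, all shared, and Slc6a11 had 1 WT and 2 KO peaks. None of the 3 had a start peak. Among glycine carriers, Slc6a9, the carrier of glia and many other cells, was open at its first annotated start (97.6 WT, 92.0 KO) and had 10 WT and 9 KO peaks. Slc6a5, the carrier of glycinergic neurons, had no start peak. Its strongest region lay 22043 bp upstream in WT, at 94.4 and 95.2, and it had 1 KO-only peak in the body at 39.5.

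Taurine and creatine uptake are general functions of cells, and both carriers were open with 25 peaks in each list between them. Slc6a6, the taurine carrier, had 16 WT and 15 KO peaks, with 3 WT-only and 2 KO-only. Its start peak was 2807 bp in WT (95.2) and 3350 bp in KO (97.9), and a body region reached 94.6 and 97.4. The WT-only peak at chr6:91732104-91732682 had a percentile of 58.7, the highest of any single-list member peak, and lay 1317 bp from a KO peak. The other single-list peaks were between 0.905 and 11.6. Peaks around Slc6a6 numbered 119 in WT and 132 in KO.

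Slc6a8, the creatine carrier on the X chromosome, had 9 WT and 10 KO peaks. Its start region held 2 shared peaks in each list, the stronger at 93.2 and 90.8. The WT-only peak was at 23.9 and the KO-only peaks at 33.1 and 8.56, all in the flanks. In its 1 Mb surroundings 118 WT and 108 KO peaks were called.

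The 8 carriers of proline and other neutral amino acids had 33 WT and 29 KO peaks, and 2 were open at the start. Slc6a17, a carrier of synaptic vesicles, was the richest, with 15 WT and 13 KO peaks and a start peak of 1624 bp in WT (84.0) and 1275 bp in KO (75.2). Its 2 WT-only peaks, at 16.3 and 17.7, lay upstream of the start. Slc6a7, the brain proline carrier on chromosome 18, had no peak at either end but held the strongest peak of the family in a flank, 2155 bp from the gene end in WT (97.8) and 2152 bp in KO (99.5). A body region of Slc6a7 reached 91.3 and 96.6, and 7 peaks in each list were shared, with 1 KO-only peak at 30.0.

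Slc6a19, the main neutral amino acid carrier of gut and kidney, was open at a weak start (55.0, 53.2) and had 5 WT and 4 KO peaks. The neighbouring Slc6a18 had 4 peaks in each list, all shared, and part of these lay in the windows of both genes. The remaining members of this group had few peaks. Slc6a20a had 3 WT and 2 KO peaks, Slc6a20b and Slc6a15 had 1 in each list, and Slc6a14 had a single WT-only peak in its body, at percentile 42.1. Slc6a16 and Slc6a21 had 2 and 3 peaks in each list, without single-list peaks. In all, 12 member peaks fell in the windows of 2 members. They are counted once in totals over members, families and groups, and under both genes in counts per gene.

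The cationic amino acid transporters of Slc7a and their relatives had 40 WT and 36 KO peaks, with 8 WT-only and 3 KO-only. The background shares near all protein-coding genes were 18.5% and 12.2%. Slc7a1 had 13 WT and 10 KO peaks. Its start peak was alike in both lists, 2224 bp at 99.0 in WT and 2142 bp at 99.1 in KO. The 3 WT-only peaks, at 32.7, 24.6 and 39.4, lay in the body or just past the 3′ end, and 8.75% of all genes had a balance as low or lower. Surrounding peaks numbered 146 in WT and 126 in KO (86.3%). Slc7a2, a cationic carrier that supplies arginine, was open in both lists (97.8, 98.8) and had 6 WT and 4 KO peaks, with WT-only peaks at 22.4 and 0.0886.

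Slc7a14, a lysosomal relative described mainly in the nervous system, had 14 peaks in each list without an open start. All lay in the gene body, with 3 WT-only and 3 KO-only. Its strongest region, 49513 bp into the gene at chr3:31259893-31261919 in WT, had percentiles of 96.9 and 92.3, and another had 76.5 and 91.6. The WT-only peaks, at 21.0, 25.3 and 0.565, lay beside that strongest region. The KO-only peaks had percentiles of 29.3, 48.7 and 6.13, the second at chr3:31272574-31273242 and the third 1259 bp from the start. Its surroundings held 83 WT and 57 KO peaks (68.7%), so its even count stood in surroundings with fewer KO peaks. Slc7a4 had 6 WT and 7 KO peaks, all shared and all in the flanks, and Slc7a3 had 1 shared peak in each list.

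The light chains of the heteromeric exchangers had 53 WT and 49 KO peaks over 10 genes, with 3 single-list peaks in each list. The background shares were again 18.5% in WT and 12.2% in KO. Slc7a5, which imports leucine and other large neutral amino acids, had 12 peaks in each list. Beside a start peak at 98.6 and 98.0, its body held 3 strong shared regions, at 97.4 and 96.4, at 95.5 and 96.4, and at 93.6 and 94.4. Its WT-only peak was at 41.3 and its KO-only peak at 25.9, both in the flanks. Slc7a6, an exchanger of cationic for neutral amino acids, had 11 peaks in each list and a start at 99.1 and 98.3. Its strongest peak, at 99.2 in both lists, lay at the starts of Slc7a6os and Prmt7.

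Slc7a11 was open in both lists, with a start peak of 1700 bp in WT (91.2) and 1740 bp in KO (83.6), and both covered the pair of amino acid response element cores. Its window held 6 WT and 4 KO peaks, of which 1 WT peak, at 17.9, had no partner. Slc7a7, the exchanger defective in lysinuric protein intolerance, had 12 WT and 11 KO peaks but no start peak, and 4 WT and 3 KO peaks lay at the starts of neighbours such as Oxa1l, Mrpl52 and Mmp14. Slc7a8 had 3 peaks and Slc7a10 had 2 in each list, all shared. Slc7a15 had 6 WT and 5 KO peaks, all shared, and its strongest region, 28318 bp past its nearest annotated start, reached 96.2 and 96.8.

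Slc7a12 had 1 peak in each list, at a gene end, with percentiles of 86.7 and 73.2. Within 1 Mb of it, 66 WT and 17 KO peaks were called, and 49 of the WT peaks were WT-only. The KO count was 25.8% of the WT count, the lowest of all 54 members, whose median was 92.0%. The gene-end peak of Slc7a12 was thus shared in a region where most WT peaks had no KO partner. At the other end of this range, Slc6a11 had 169 WT and 199 KO peaks around it, or 118%. KO peaks outnumbered WT peaks around 10 members, WT peaks outnumbered KO peaks around 43, and the counts were equal around 1.

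The 3 system A carriers of Slc38a, which accumulate glutamine and alanine with sodium, were all open in both lists and had 23 WT and 22 KO peaks. Slc38a1 had a start at 98.5 and 95.1, with 4 WT and 3 KO peaks. Slc38a2 had 11 WT and 9 KO peaks, with paired peaks on either side of its start. The peak over the promoter was 1141 bp in WT (88.3) and 1124 bp in KO (85.2), and the one just inside the gene was at 84.6 and 87.2. A region 10238 bp upstream in WT was stronger than either, at 95.0 and 96.2. The 2 WT-only peaks of Slc38a2 were at 10.1 and 1.23. Slc38a4 had 8 WT and 10 KO peaks, a start at 91.6 and 90.8, and KO-only peaks at 2.14 and 6.71.

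The 2 system N carriers, which move glutamine and histidine in liver and brain, had no open start. Slc38a3 had 7 WT and 9 KO peaks, and its strongest WT peak, at 99.3, lay at the start of Gnai2, over 2 KO peaks at 91.8 and 91.5. Inside the gene itself there was only a KO-only peak at 28.3. A region at no other start, 6316 bp from the gene end in WT, reached 96.7 and 95.7, the latter being the strongest KO peak of this gene. The single peak of Slc38a5 in each list, at 91.1 and 91.0, lay at the start of a neighbouring gene, Ftsj1.

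The other 6 members of Slc38a had 38 WT and 39 KO peaks, and 4 were open. Slc38a10 had 12 peaks in each list, a start at 97.8 and 97.9, and a region at 98.5 and 98.8 that lies at the starts of Tepsin and Ndufaf8. Slc38a6 had 11 peaks in each list and a start at 91.4 in both, shared with the start of Trmt5. Its WT-only peak, at 10.6, lay 942 bp inside the gene, and its KO-only peaks were at 18.3 and 41.9. Slc38a7, a lysosomal glutamine carrier, was open at 98.6 and 98.3 and had 3 WT and 5 KO peaks. Slc38a9, the lysosomal arginine sensor upstream of mTORC1, was open at 87.7 and 85.2 with 7 WT and 6 KO peaks. Slc38a8 had 2 and Slc38a11 had 3 peaks in each list, all shared.

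Strong accessibility away from starts was common to both lists. At or above the 90th percentile, and at no start of a member or neighbour, there were 13 WT and 15 KO peaks, at 10 members in each list, and all were shared, as were 99.9% of all peaks of this strength in each list. They belonged to Slc38a2, Slc38a3, Slc6a2, Slc6a5, Slc6a6, Slc6a7, Slc7a5, Slc7a14 and Slc7a15 in both lists, and to Slc6a17 in WT and Slc38a4 in KO. The KO region at Slc38a4, at 93.4, had a WT partner at 89.2, and the WT region at Slc6a17, at 90.9, had a KO partner at 87.1. By place, 20 of 141 WT and 16 of 137 KO body peaks were single-list, as were 17 of 146 WT and 16 of 145 KO flank peaks. At starts these were 2 of 29 WT peaks, at Slc1a3 and Slc38a6, and 0 of 26 KO peaks. In every place the share was below that of all peaks near protein-coding genes, 18.5% in WT and 12.2% in KO. Shares by place over all genes were not computed. Member start peaks were also strong, with median percentiles of 91.2 in WT and 90.8 in KO. An effect of place apart from peak strength was not tested.

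Partner and pathway genes were looked at with the same start rule. Of all protein-coding genes, 55.0% were open in both lists, 41.9% in neither and 1.08% in the KO list only. Slc3a2, the heavy chain that carries most light chains to the plasma membrane, was open in both lists at 99.6 and 98.3. Its window held 19 WT and 13 KO peaks, with 8 WT-only and 0 KO-only. A WT-only excess of 7 or more was found at 0.79% of all protein-coding genes, and the share at 8 or more was not computed. Slc3a2 lies on chromosome 19, where the KO list held 78.8% as many peaks as the WT list, against 92.4% over all chromosomes. A link between this count and the chromosome was not tested. Slc3a1 and Cltrn, the partners used in kidney, were open in neither list. Of 11 other amino acid carriers, 7 were open in both lists, 3 in neither and 1, Slc25a13, in the KO list only. Slc25a13, a mitochondrial aspartate and glutamate carrier, had 0 WT and 2 KO peaks, with a start percentile of 71.0. Of 7 vesicular transmitter carriers, Slc17a8 (82.6, 82.2) and Slc18a1 (97.8, 96.6) were open in both lists and the other 5 in neither. All 11 genes of the amino acid stress response, such as Atf4 (99.1, 99.5) and Asns (87.0, 91.4), and all 7 of amino acid sensing by mTORC1 were open in both lists.

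Most markers of the labelled cell type were open. At 8 of 10 fibroblast genes the start had a peak in both lists, with Lum and Fap as the exceptions. The same held at 55.0% of all protein-coding genes. None of 5 keratinocyte genes was open in either list, and of 5 leukocyte genes 4 were open in neither list and 0 in both. Of 4 endothelial genes 2 were open in both lists, as were 3 of 6 neuronal and 1 of 4 glial genes. The strongest of those 6 was Syt1, at 80.5 and 83.0. The part of other cells in the peaks at neuronal and glial carriers was not tested.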

How the data were processed

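ATAC-seq, in which the Tn5 transposase tags open DNA, was done on 3 WT and 3 Lap2alpha KO libraries. Reads were processed with Bowtie2 2.5.1, Genrich and deepTools 3.5.1 on build GRCm38, per the submitters' processing notes. The sources used here give neither the settings, nor a Tn5 shift, nor how libraries were combined. From the authors came 1 deposited list per genotype, and each peak has a score capped at 1000 (at the cap in 94.8% of WT and 95.0% of KO peaks, hence not used), a signal, a −log10 p at the summit, a q that was not used, and a summit position. The deposited signal is an area with no scaling between lists, and was used only as a percentile within its list.

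Peaks were assigned by summit to members and 20 kb flanks, and compared by an overlap of 1 bp. Starts came from the RefSeq promoter table (GRCm38.p6) for 38 members, otherwise from both gene ends. Python 3.11.15, numpy 2.4.6, pandas 2.3.3 and matplotlib 3.10.9 were used. The overlap code was tested on simulated lists against bedtools 2.31.1. With 1 list per genotype no test was made.

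Members are named singly or in groups, except where a result is not reported here. Full values were given for members with a start peak in 1 list or with 3 or more single-list peaks, for single-list peaks in the upper 50% of their list, and per family for the 2 members with most peaks and the 2 with the highest percentile. The members and gene lists were chosen with earlier results of these data known. No pattern that those results already showed is independent support.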

Additional observations from a re-analysis of the deposited data

How the results depend on the processing

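Requiring a reciprocal overlap of 50% lowered the shared share to 74.7% of WT and 76.6% of KO member peaks, with 80 WT-only and 72 KO-only. Of member peaks in the stronger 50% of their list, set against all peaks of the other, the shares were 98.9% and 99.4%, with 2 WT-only peaks and 1 KO-only peak, and with both lists limited in this way Slc1a3 became the 1 member with a start peak in WT only. With a summit −log10 p of at least 10.2 in both lists, 91.6% of WT peaks were shared, with 15 WT-only and 17 KO-only. With both lists held to their strongest 73554 peaks, 24 were WT-only and 35 KO-only. Member spans alone gave 22 WT-only and 16 KO-only peaks, and 50 kb flanks gave 82 and 56, since the windows hold fewer or more peaks. KO-only minus WT-only peaks in Slc7a reversed from -5 to 3 under the summit threshold, the cause of which was not tested. The balance at Slc1a3 went from -7 to -1 in the upper 50% of the lists and -2 under the summit threshold, and that at Slc6a2 from 5 to 0 and 2, so both imbalances rest mostly on weak peaks. Of the 44 alternatives to the totals and start counts, 27 stayed within the Wilson interval of the reported share or within 1.5 times the reported count. The balances of families and single genes had 88 alternatives. Of these, 44 were equal or kept their sign within 1.5 times, 43 moved further and 1 reversed. Leaving out peaks at starts of other genes and using only members with strand (16 open starts in place of 23) were chosen after seeing the data.

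Leaving out a library was not run, since each list combines 3 of them. No paired analysis was possible because the lists carry no replicate numbers. Depth is unknown, so weak single-list peaks are the least certain values.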
